A study of Mus musculus with 8 samples.

Results

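Endothelial cells, which line blood vessels, were taken from single-cell RNA sequencing (scRNASeq) of mouse parietal bone by detection of endothelial genes. A cell was kept with at least 500 detected genes and under 10% of its unique molecular identifiers (UMIs, each standing for 1 captured transcript) in mitochondrial genes. A kept cell was counted as endothelial when UMIs of at least 3 of Pecam1, Cdh5, Kdr, Emcn, Egfl7 and Tie1 were detected, none of the blood cell gene Ptprc was, cartilage collagen Col2a1 took under 1% of its UMIs, and it was no osteoblast. Osteoblasts were cells with 10 or more UMIs of Col1a1 in which 2 or more of Runx2, Sp7 and Ibsp reached 2 UMIs. This gave 3106 endothelial cells, 1310 from wild type (WT) and 1796 from heterozygous (Het) pups, which were 6.69% of the 46420 kept cells of 68625 barcodes.

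The 8 libraries compared WT pups with pups carrying 1 copy of the G610C glycine substitution in Col1a2, the gene for the α2 chain of type I collagen, a model of osteogenesis imperfecta. All 8 carry the strain label B6.129(FVB)-Col1a2tm1Mcbr/J and an age label of P4-5, and each pools cells released by collagenase from the parietal bones of several pups of the same genotype. WT libraries S1 and S2 and Het libraries S3 and S4 were made with kit version 3, WT libraries S5 and S6 and Het libraries S7 and S8 with kit version 3.1. Nothing in the labels ties a library to a separate litter, so tests measure the spread between pools.

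Endothelial cells form arteries, capillaries and veins, and each segment keeps its own set of genes. Capillary cells take up fatty acids and water, tip cells lead new sprouts under VEGF and Notch signals, and venular cells carry P-selectin, E-selectin and the chemokine receptor Ackr1, with which they slow and admit leukocytes. In growing bone, vessels rich in Emcn and Pecam1 run beside osteoblast precursors and send them BMP, Wnt and growth factor signals. Osteoblasts secrete most of the type I collagen of bone.

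The members were chosen by these marker values, so their levels are given as a description, with no test. All 6 rule genes were detected in 1765 of the 3106 cells (56.8%), 5 in 721 (23.2%), 4 in 383 (12.3%) and only 3, the minimum, in 237 (7.63%). Just outside the limit lay 408 kept cells with 2 of the 6 genes that met every other term. Ptprc left out 113 cells with 3 or more of the genes, Col2a1 another 118 and the osteoblast term 28. Pecam1, an adhesion molecule of endothelial junctions, was detected in 94.98% of the cells, Cdh5 (VE-cadherin) in 94.9%, Egfl7 in 94.2%, the VEGF receptor Kdr in 88.4%, Emcn (endomucin) in 86.9% and the receptor kinase Tie1 in 69.8%. In 5987 haematopoietic cells of the same suspensions, some kinds of which also carry Pecam1, the share was 9.65% for Pecam1 and between 1.55% and 8.79% for the other 5. These haematopoietic cells had a UMI of Ptprc and at least 3 of 11 blood cell markers, and were neither endothelial cells nor osteoblasts.

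Endothelial genes that the rule did not use were present in the same cells. Cd93 was detected in 89.3% of them, against 15.5% of haematopoietic cells, the VEGF receptor Flt1 in 88.1% against 4.11%, the TGF-β co-receptor Eng in 87.0% against 9.62% and Plvap, a protein of capillary fenestrae, in 85.8% against 2.94%. Vwf, von Willebrand factor, was found in 26.9% against 2.44%. Of the 25 identity genes besides the 6 of the rule, Fli1 had the smallest ratio to its share in blood cells (66.9% against 38.8%). As unscaled counts per 1000000 UMIs (CPM) averaged over the 8 libraries, the fatty acid binding protein Fabp4 stood at 2767 ± 1610 (SD, n = 8), Flt1 at 1181 ± 352, the lipoprotein lipase anchor Gpihbp1 at 1112 ± 221, Plvap at 1100 ± 127 and the apelin receptor Aplnr at 547 ± 132. These levels were between 98.5 and 139 times those of all other kept cells. Counts are of transcript ends, so CPM is not divided by gene length and genes are not ranked against each other.

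The cells held many endothelial cells with capillary genes and fewer with lymphatic or brain vessel genes. At 2000 UMIs per cell, the depth to which 2552 of the cells could be thinned, at least 2 of 8 capillary genes were detected in 88.0% of them, against 2.55% of haematopoietic cells. At least 2 arterial genes were found in 24.2% (0.375% of haematopoietic cells), at least 2 tip cell genes in 19.5% (0.581%) and at least 2 venous genes in 13.2% (0.225%). Lymphatic genes reached 0.666%, against 0.112% in haematopoietic cells, and Lyve1 (0.970 CPM), Ccl21a (0.481 CPM) and Reln (0.409 CPM) were near 0, while Prox1, the transcription factor of lymphatic identity, was at 7.44 CPM, Mmrn1 at 10.3 CPM and the VEGF receptor Flt4 at 92.1 CPM. The brain barrier genes Mfsd2a (0.0870 CPM), Slco1a4 (1.04 CPM) and Slco1c1 (1.16 CPM) were also near 0, while the transporters Abcg2 (272 CPM), Abcb1a (48.2 CPM, 84.9 times the other kept cells) and Slc2a1 (41.8 CPM) were not, and 7.68% of the cells held at least 2 genes of that list, against 0.244% of haematopoietic cells. Sinusoidal genes were found in 0.940% of endothelial and in 4.61% of haematopoietic cells, so the share of cells with 2 of these genes was not read as a class of cells. The sinusoidal gene Stab2 by itself averaged 21.9 CPM in endothelial and 1.02 CPM in haematopoietic cells. The lung and muscle capillary gene Car4 was at 0.143 CPM.

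**Figure D1:**
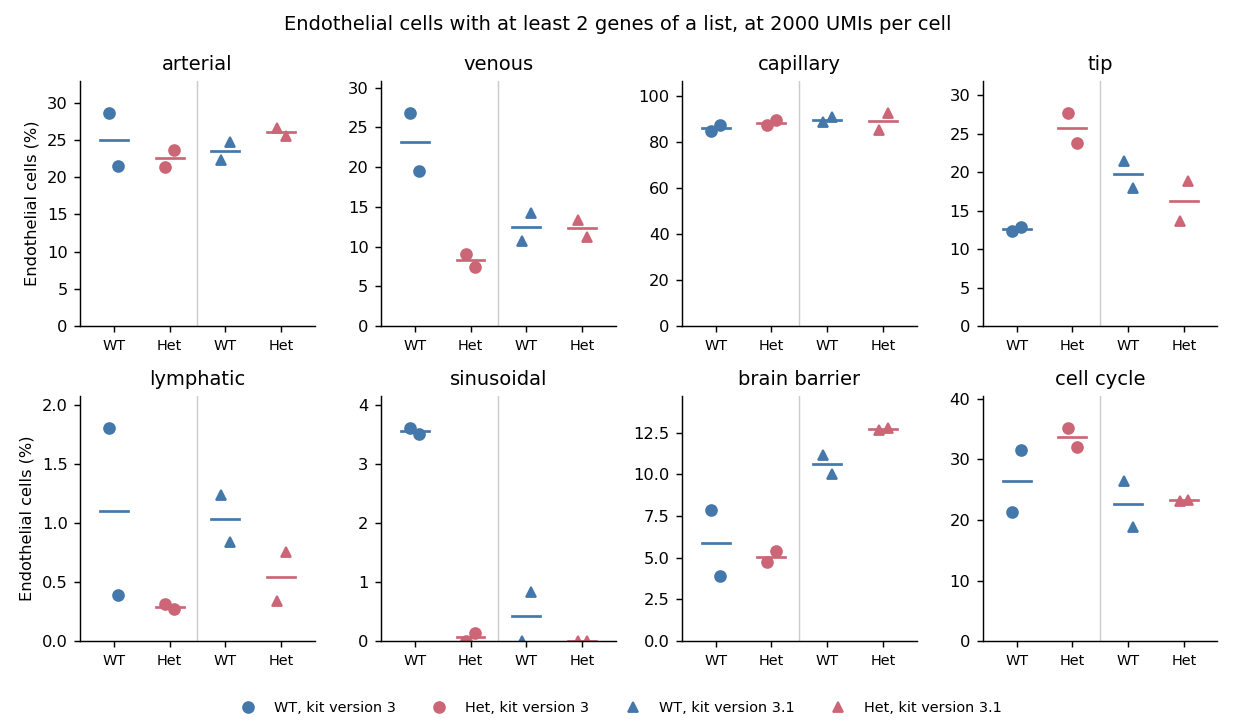
Percent of endothelial cells with at least 2 detected genes of each of 8 lists, after thinning every cell to 2000 UMIs (linear axes from 0). Each point is 1 library (circles kit version 3, triangles kit version 3.1, blue WT, red Het) and each line the mean of 2; the venous share is 26.8% and 19.5% in the WT libraries of kit version 3 and 9.12% and 7.44% in the Het libraries beside them, with no such gap in kit version 3.1.

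Cells with arterial, venous, capillary or tip genes differed in many genes outside the list that defined them. The gene order is by the mean difference within libraries, and the values are descriptions, since the same cells gave both. Cells with at least 2 arterial genes held 994 CPM of Cxcl12, the chemokine that retains blood stem cells, against 94.5 CPM in the other endothelial cells, and were higher in all 8 libraries. They also held more Unc5b, a netrin receptor of arteries (302 against 45.5 CPM), and Vegfc, a growth factor for lymphatic vessels (219 against 39.9 CPM), and in 7 of 8 libraries more elastin, Eln (794 against 249 CPM). Cells with venous genes held 507 CPM of Vwf against 133, 345 CPM of the prostaglandin transporter Slco2a1 against 135, and 223 CPM of the growth factor Igf1 against 98.1. Cells with capillary genes held more Rbp7 (169 against 39.1 CPM), the sprouting ligand Apln (260 against 96.8 CPM) and the Notch feedback gene Nrarp (176 against 59.7 CPM), each in all 8 libraries. Cells with tip genes held more Igfbp3 (1296 against 580 CPM), the receptor kinase Kit (142 against 52.5 CPM), the Notch ligand Dll4 (164 against 70.6 CPM) and the potassium channel subunit Kcne3 (153 against 76.6 CPM).

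Endothelial cells made up 8.09% and 6.06% of kept cells in WT S1 and S2, 10.5% and 13.02% in Het S3 and S4, 3.27% and 5.50% in WT S5 and S6, and 5.96% and 3.28% in Het S7 and S8. The groups overlapped. Means were 5.73% ± 1.98 (SD, n = 4) in WT and 8.18% ± 4.38 in Het, and an exact two-sided permutation test over the 70 assignments of libraries gave p = 0.343, where the smallest p possible is 0.0286. The assignments ignored kit version, so this p also takes in the spread between kit versions. Het was higher by 4.66 percentage points within kit version 3 and by 0.231 points within kit version 3.1. Counting error alone, as an exact 95% binomial interval, spanned 12.3% to 13.8% in S4 and 2.95% to 3.62% in S5. With haematopoietic and cartilage cells out of the denominator the difference was 1.22 points.

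Libraries differed in depth and in the RNA of other cells. Endothelial UMIs summed to between 1946316 (S8) and 5149305 (S7) per library, with a median of 3400 (S4) to 9551 (S7) UMIs per cell. Counted by a UMI of Ptprc or at least 3 of 11 haematopoietic markers, haematopoietic cells made up 57.2% and 47.2% of the kept cells of S1 and S2. In the other 6 libraries they made up 3.499% to 10.03%. This count is wider than that of the 5987 cells and was the one left out of the denominator above. In the endothelial sums, the 5 erythroid markers together took 6260 and 25547 CPM in S1 and S2, 5059 and 3713 in S3 and S4, 1987 and 688 in S5 and S6, and 40.2 and 37.0 in S7 and S8. The 11 haematopoietic markers, 2 of them at 0 in all libraries, took 166 and 217 CPM in S1 and S2 and 12.4 to 48.8 CPM elsewhere. The 9 cartilage markers took 155 and 46.1 CPM in S1 and S2, 799 and 594 CPM in S3 and S4, and 1000 to 2215 CPM in kit version 3.1. Cartilage cells, with at least 1% of UMIs in Col2a1, made up 2.14% and 3.17% of the kept cells of S1 and S2. They made up 22.4% and 15.1% in S3 and S4 and 38.1% to 60.6% in kit version 3.1. Mural markers (408.7 to 859 CPM), fibroblast markers (35.5 to 404 CPM) and osteoblast markers (259 to 2352 CPM) overlapped between genotypes. Kit version separated the libraries along a first principal component with 76.3% of the variance, so it entered the fit. Of the endothelial cells, 33 had a barcode that was also kept in another library, and 2 barcodes were endothelial in 2 libraries.

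The comparison of Het with WT asks how the mutation alters these cells. UMI sums of the endothelial cells per library were tested with edgeR's quasi-likelihood test with kit version as covariate, and Benjamini-Hochberg adjusted p-values under 0.05 over all tested genes were called. Of 11472 genes tested, 110 were called (0.959%), 45 higher in Het (0.392%) and 65 lower (0.567%), and 1172 had an unadjusted p under 0.05. All 110 had the same sign within both kit versions, and in 105 the pair of Het libraries lay wholly above or wholly below the pair of WT libraries of either kit version, which held for 9.85% of all tested genes. The 4 Het and 4 WT libraries did not overlap at all in 52 called genes, and in 238 of all tested genes (2.07%). Leaving out each library in turn, 30 genes stayed called throughout, and without S4 only 40 genes were called in all. Without the kit version term no gene was called by edgeR, with 255 at an unadjusted p under 0.05. Of the called genes, 17, all lower in Het, had a level under 0.5 times that of the other kept cells.

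**Figure D2:**
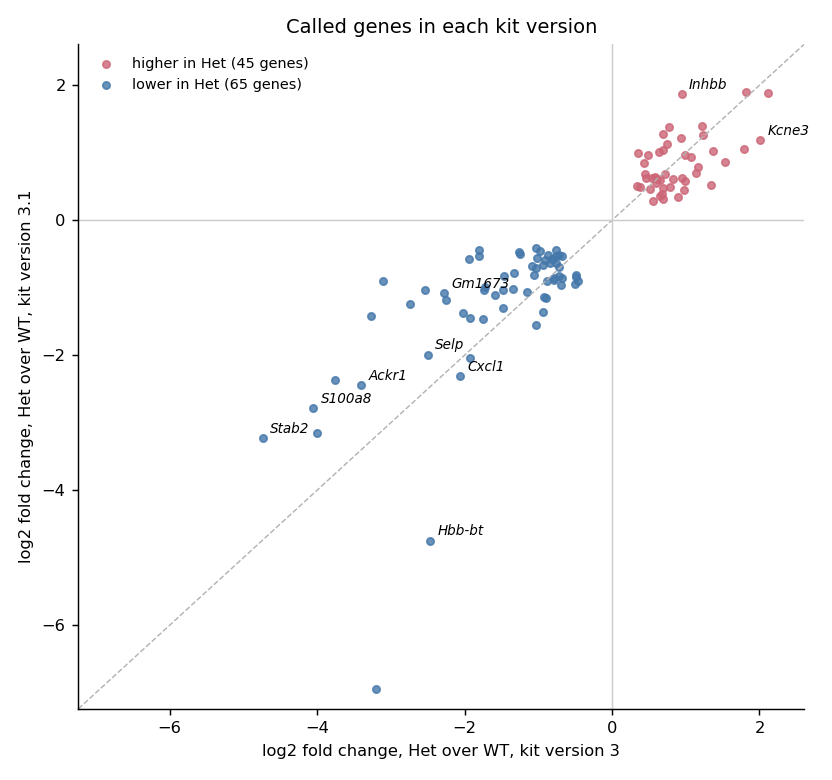
Log2 fold change (Het over WT) of the 110 called genes in kit version 3 (x axis) and kit version 3.1 (y axis), each from 2 Het and 2 WT libraries, red for the 45 higher and blue for the 65 lower genes; the dashed line marks equal change. All points lie at the lower left or the upper right, with Stab2, Ackr1 and S100a8 falling further in kit version 3 and the erythroid gene Hbb-bt further in kit version 3.1.

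The venular genes Selp, Sele and Ackr1 fell in Het endothelial cells. Selp (P-selectin, chromosome 1, 164115264 to 164150026, plus strand, in build mm10, as all coordinates here), with which venules catch rolling leukocytes, stood at 117 and 101 CPM (TMM-scaled, as all levels by library from here on) in the WT and 17.95 and 20.4 CPM in the Het libraries of kit version 3. In kit version 3.1 it stood at 49.4 and 69.9 against 15.1 and 15.2 CPM. Every Het library was below every WT library, with a log2 fold change of -2.26 ± 0.15 (SE) and an edgeR adjusted p of 0.000141, the lowest of all genes. Sele (E-selectin, chromosome 1, 164048234 to 164057677, plus strand) lies 57586 bases before Selp. It stood at 49.7 and 55.0 against 11.4 and 10.6 CPM in kit version 3 and at 39.8 and 48.5 against 23.6 and 12.2 CPM in kit version 3.1. The groups again did not overlap, and the log2 fold change was -1.68 ± 0.23 (edgeR adjusted p = 0.00760).

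Ackr1 and Stab2 fell in Het, and in kit version 3.1 they rested on fewer UMIs than in kit version 3. Ackr1 (chromosome 1, 173331886 to 173333750, minus strand), the chemokine receptor that marks venules, had 299 and 313 UMIs in S1 and S2 and 49 and 30 in S3 and S4, but 8 and 17 in S5 and S6 and 2 and 2 in S7 and S8. Its log2 fold change was -3.31 ± 0.34 (edgeR adjusted p = 0.00304), with -3.40 within kit version 3 and -2.44 within kit version 3.1. Ackr1 shares 361 exon bases on the same strand with Cadm3, whose log2 fold change was -2.34 (edgeR adjusted p = 0.0142), so reads may be split between them. Stab2, a scavenger receptor of sinusoids for hyaluronan (chromosome 10, 86841198 to 87008025, minus strand), had 316 and 117 UMIs in S1 and S2, 2 and 20 in S3 and S4, 18 and 79 in S5 and S6, and 6 and 3 in S7 and S8. It changed by -4.34 ± 0.50 on the log2 scale (edgeR adjusted p = 0.00436), with -4.73 within kit version 3 and -3.23 within kit version 3.1. Stab1, the other sinusoidal gene tested, was at 101 to 191 CPM in kit version 3 and 86.0 to 128 CPM in kit version 3.1 and was not called (log2 fold change -0.05 ± 0.20, edgeR adjusted p = 0.976). Vcam1, a ligand for leukocyte integrins, differed between genotypes in kit version 3 (173 and 141 against 17.2 and 14.96 CPM) and not visibly in kit version 3.1 (9.59 and 17.6 against 14.7 and 11.7 CPM). It was not called (log2 fold change -2.02 ± 0.52, edgeR adjusted p = 0.130), but 6 of 21 alternatives called Vcam1 lower. Among them were those without S5 (adjusted p = 0.0435) or S7 (0.0304) and, chosen after the data were seen, the one without cells holding at least 3 markers of haematopoietic, mural or fibroblast cells (log2 fold change -3.20, edgeR adjusted p = 0.00691).

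Of the 6 venous genes tested, 3 were called, all lower (0.567% of all tested genes were), with a median log2 fold change of -1.85 (-2.38 within kit version 3, -0.61 within kit version 3.1), beside -0.00 over all tested genes. The 2 venous genes with the widest expression gave no call. Nr2f2, the transcription factor of venous identity, had a log2 fold change of -0.41 ± 0.17 (edgeR adjusted p = 0.417), and the receptor Ephb4 one of -0.13 ± 0.12 (edgeR adjusted p = 0.795). The share of cells with Selp did not overlap between genotypes. At 2000 UMIs, it was detected in 10.8% and 10.5% of the cells of S1 and S2, 2.20% and 3.65% of S3 and S4, 7.02% and 6.28% of S5 and S6 and 4.78% and 3.76% of S7 and S8. Positive cells, 15 to 36 per WT and 5 to 27 per Het library, held 1.47 ± 0.19 (SD, n = 4) UMIs in WT and 1.16 ± 0.17 in Het, and these values overlapped. Haematopoietic cells, unthinned at a median of 5843 UMIs, held a Selp UMI in 2.87% of cells, more than the endothelial cells of S3 did. Sele was detected in 5.72% ± 1.78 of WT and 2.35% ± 1.10 of Het endothelial cells and in 0.244% of haematopoietic cells. The share of cells with at least 2 venous genes was 17.8% ± 7.0 (SD, n = 4) in WT and 10.3% ± 2.6 in Het, and an exact two-sided permutation test gave p = 0.0857 (0.343 adjusted over 8 lists). It was lower by 14.9 percentage points within kit version 3 and by 0.190 points within kit version 3.1. The libraries with the most venous cells, S1 and S2, were also those with the most blood cells and haemoglobin RNA, and the part of these in the venous genes was not tested.

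Selp and Sele lie side by side and fell together, and Cxcl1, described below, is a classic gene of the same inflammatory response, so the 250 bases before their start sites are shown (RefSeq, build GRCm38.p6, plus strand, from chr1:164115014-164115263 for Selp, chr1:164047984-164048233 for Sele and chr5:90890995-90891244 for Cxcl1). Capitals mark TGANTCA, the letters bound by Fos and Jun proteins, in Selp and Sele, and a pair of overlapping matches to the NF-kB motif in Cxcl1.

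Selp: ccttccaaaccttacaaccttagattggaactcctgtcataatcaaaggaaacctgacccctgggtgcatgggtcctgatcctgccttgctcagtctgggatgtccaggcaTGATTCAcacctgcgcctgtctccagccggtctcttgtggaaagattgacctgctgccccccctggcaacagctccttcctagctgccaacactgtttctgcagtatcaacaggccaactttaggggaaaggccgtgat

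Sele: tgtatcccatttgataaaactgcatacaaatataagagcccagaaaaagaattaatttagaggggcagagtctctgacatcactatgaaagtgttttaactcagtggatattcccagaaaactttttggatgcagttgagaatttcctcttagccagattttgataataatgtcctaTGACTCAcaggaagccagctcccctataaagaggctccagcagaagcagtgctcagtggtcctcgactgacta

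Cxcl1: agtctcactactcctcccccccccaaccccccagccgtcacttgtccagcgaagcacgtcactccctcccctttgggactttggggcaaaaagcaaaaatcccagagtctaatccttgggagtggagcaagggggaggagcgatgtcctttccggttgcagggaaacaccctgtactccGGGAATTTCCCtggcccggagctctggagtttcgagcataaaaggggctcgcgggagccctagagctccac

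The match ended 133 bases before the start site in Selp and 67 bases before it in Sele, and the matches in Cxcl1 61 and 62 bases before it. On either strand, TGANTCA was found in this window in 6.75% and the NF-kB motif in 7.25% of 32851 mouse promoters. Among called genes with a promoter sequence, 8 of the 55 lower genes (14.5%) held TGANTCA and 8 the NF-kB motif, and of the 35 higher genes 4 (11.4%) and 8 (22.9%). Of 8939 tested genes with a sequence, 5.06% held TGANTCA and 10.5% the NF-kB motif. A match describes the letters and names no bound factor.

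Of 7 capillary genes tested, edgeR called 2, both higher in Het, as were 0.392% of all tested genes, and DESeq2 also called Cd300lg. All 7 had an unadjusted p under 0.05, beside 1172 of all 11472 tested genes, and they split into 4 higher and 3 lower in Het. Aqp1, a water channel of capillary endothelium (chromosome 6, 55336432 to 55348555, plus strand), had the clearest rise. It stood at 279 and 250 CPM in the WT and 555 and 690 CPM in the Het libraries of kit version 3, and at 169 and 199 against 478 and 399 CPM in kit version 3.1. No Het library overlapped a WT library, and the log2 fold change was 1.25 ± 0.10 (edgeR adjusted p = 0.000629), or 2.37-fold. At 2000 UMIs Aqp1 was detected in 29.3% ± 3.18 (SD, n = 4) of WT and 51.8% ± 3.77 of Het cells, with 1.66 ± 0.18 and 2.19 ± 0.23 UMIs per positive cell, and in 8.22% of unthinned haematopoietic cells. In the other kept cells its log2 fold change was -1.36. Rgcc, a cell cycle regulator with high levels in capillaries, stood at 506 and 518 against 722 and 778 CPM in kit version 3 and at 587 and 562 against 679 and 718 CPM in kit version 3.1. Its log2 fold change was 0.42 ± 0.08 (edgeR adjusted p = 0.0471), and the call was lost without any library but S5 (adjusted p up to 0.182). Fabp4 ranged from 891 to 5820 CPM and was not called (log2 fold change -1.01 ± 0.23, edgeR adjusted p = 0.0839). The list median was 0.27 on the log2 scale, with 0.33 within kit version 3 and 0.03 within kit version 3.1.

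**Figure D3:**
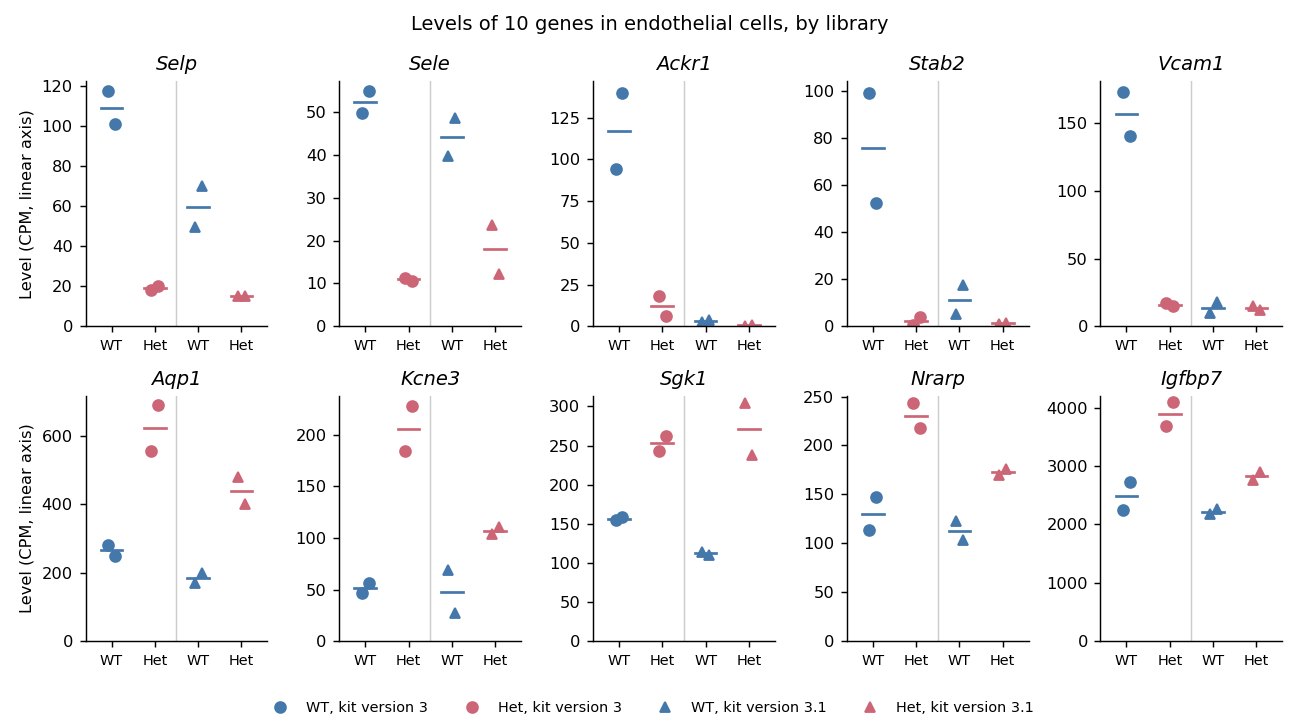
TMM-scaled level in CPM (linear axes from 0) of 10 genes in endothelial cells, 1 point per library (circles kit version 3, triangles kit version 3.1, blue WT, red Het) with a line at the mean of 2. For Selp and Sele the highest Het point lies below the lowest WT point, Ackr1, Stab2 and Vcam1 are high mainly in the WT libraries of kit version 3, and Aqp1, Kcne3, Sgk1 and Nrarp are higher in the Het libraries of both kit versions.

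Besides Aqp1, the largest rises among genes chosen by the rule of size were in Kcne3, Inhbb, Lipt2, Hlx, Ramp3, Camk1d, Sgk1, Eml1 and Prdm1. Kcne3, a potassium channel subunit, stood at 46.3 and 56.8 against 184 and 228 CPM in kit version 3 and at 68.6 and 27.4 against 104 and 111 CPM in kit version 3.1. It had the largest rise, 1.60 ± 0.25 on the log2 scale (edgeR adjusted p = 0.0126, and up to 0.054 without S2 or S4), and was detected in 6.52% ± 2.33 (SD, n = 4) of WT and 17.9% ± 6.21 of Het cells at 2000 UMIs. Lipt2, an enzyme of lipoic acid synthesis that lies 15136 bases before Kcne3 on the same strand of chromosome 7, rose by 1.31 ± 0.18 (edgeR adjusted p = 0.00760). Inhbb, a subunit of activin B, stood at 19.2 and 18.8 against 30.8 and 41.6 CPM in kit version 3 and at 12.8 and 11.03 against 46.5 and 38.2 CPM in kit version 3.1. It rose by 1.40 ± 0.19 (edgeR adjusted p = 0.00772), with no overlap between genotypes. Sgk1, a kinase induced by glucocorticoids and serum, stood at 155 and 159 against 244 and 262 CPM and at 114 and 111 against 304 and 238 CPM. Its log2 fold change was 0.98 ± 0.13 (edgeR adjusted p = 0.00629), again with no overlap.

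Hlx, Ramp3 and Prdm1 averaged 82.8, 39.7 and 51.5 CPM. Being higher in Het within both kit versions was a term of the rule that chose the genes of this and the previous paragraph. Hlx, a homeobox factor, rose by 1.08 ± 0.16, Ramp3, which shapes the adrenomedullin receptor, by 1.07 ± 0.18, and Prdm1, a transcriptional repressor, by 0.96 ± 0.17. Their edgeR adjusted p was 0.0124, 0.0189 and 0.0236. Each of these 3 calls was lost without some library: Hlx without S4 or S6 (adjusted p up to 0.056), Ramp3 without S2, S4, S6 or S7 (up to 0.088) and Prdm1 without S2, S4, S6, S7 or S8 (up to 0.079). Eml1, a microtubule protein, rose by 0.98 ± 0.09 (edgeR adjusted p = 0.00213), from 24.2 and 28.6 to 48.0 and 55.3 CPM in kit version 3 and from 52.3 and 59.6 to 110 and 110 CPM in kit version 3.1. Camk1d, a calmodulin-dependent kinase, stood at 1.34 to 4.57 CPM in kit version 3 and at 166 to 417 CPM in kit version 3.1. Its log2 fold change was 1.37 within kit version 3 and 1.02 within kit version 3.1 (edgeR adjusted p = 0.00760 overall).

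Besides Stab2, Ackr1, Selp and Sele, the largest falls among genes chosen by the rule of size were in Gm1673, Cdkl1, Cd55, Gatm, Tmem37 and Mgst1. Cdkl1, a kinase related to the cyclin-dependent kinases, fell by 1.35 on the log2 scale (edgeR adjusted p = 0.00629), from 35.6 and 30.0 to 10.3 and 9.56 CPM in kit version 3 and from 32.8 and 40.4 to 19.7 and 14.7 CPM in kit version 3.1, with no overlap. Gm1673 fell by 1.79 (edgeR adjusted p = 0.00596), from 169 and 136 to 33.7 and 30.1 CPM and from 40.1 and 27.8 to 16.8 and 14.2 CPM. Tmem37 fell by 1.22 (edgeR adjusted p = 0.00566). Cd55, which protects cells from complement, Gatm, an enzyme of creatine synthesis, and Mgst1, a membrane glutathione transferase, fell by 1.31, 1.28 and 1.20 (edgeR adjusted p of 0.0373, 0.0415 and 0.0397). Each of these 3 calls was lost without S1, S2, S3, S4 or S6, that of Gatm also without S8 and the other 2 without S7, with adjusted p up to 0.159, 0.139 and 0.210. Unscaled, haematopoietic cells held 81.9 CPM of Gatm, 114 of Mgst1 and 65.0 of Tmem37, against 29.7, 36.0 and 31.1 CPM in endothelial cells. For Cd55 the levels were 21.5 and 21.0 CPM, for Gm1673 23.5 and 56.5 and for Cdkl1 0.931 and 24.1. The part of blood cell RNA in these falls was not tested. An alternative chosen after the data were seen left out every cell with a UMI of Selp, Sele, Ackr1, Vcam1 or Stab2. It selects cells by genes that themselves differed between the genotypes and kept 883 of 1310 WT and 1463 of 1796 Het cells, so a call lost under it says nothing of the source of a fall. Under it the log2 fold change was 0.24 for Cd55, 0.22 for Tmem37, -0.24 for Gatm, -0.90 for Gm1673 (edgeR adjusted p = 0.0562) and -0.83 for Mgst1 (0.114), none of them called. That of Cdkl1 was -0.999 (edgeR adjusted p = 0.0414).

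In the Notch pathway, which holds back sprouting, 1 of 13 tested genes was called, beside 0.959% of all tested genes. It was Nrarp, a Notch target that dampens the signal. It stood at 113 and 148 against 244 and 217 CPM in kit version 3 and at 123 and 103 against 170 and 176 CPM in kit version 3.1, with no overlap and a log2 fold change of 0.72 ± 0.10 (edgeR adjusted p = 0.00998), and 0.50 (adjusted p = 0.0544) with the cells holding a venous gene UMI left out. The ligand Dll4 had a log2 fold change of 0.24 ± 0.08 (edgeR adjusted p = 0.331). Among 19 BMP and TGF-β genes edgeR called 1, Smad6, an inhibitor of BMP signals, higher in Het (0.69 ± 0.14, edgeR adjusted p = 0.0461, up to 0.178 without S2, S4, S5, S6, S7 or S8). Of all tested genes edgeR called 0.392% higher. DESeq2 called Smad6 and Id1. None of 16 VEGF and angiopoietin genes was called by edgeR, with 3 at an unadjusted p under 0.05, and neither was any of 10 shear response genes (1) or 14 junction genes (1). Of these 3 lists DESeq2 called 1 gene, Pdgfb. Pdgfb, the ligand that draws pericytes to vessels, was at 216 and 204 against 336 and 368 CPM and at 211 and 212 against 246 and 262 CPM (log2 fold change 0.50 ± 0.10, edgeR adjusted p = 0.0503). Vegfa, at 2.45 to 8.94 CPM, had a log2 fold change of -1.05 ± 0.24 (edgeR adjusted p = 0.0752). Kdr (log2 fold change 0.18 ± 0.09) and Emcn (-0.27 ± 0.14) are genes of the rule that chose the cells, so these values are a description, without a test. The VEGF list counted Kdr and the junction list Pecam1, another gene of the rule.

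Of 18 tested genes by which endothelial cells signal to bone, edgeR called 2, both lower, as were 0.567% of all tested genes. DESeq2 called these and Pdgfb. Igf1, a growth factor for osteoblasts, stood at 199 and 216 against 97.5 and 102 CPM in kit version 3 and at 128 and 120 against 62.9 and 81.7 CPM in kit version 3.1, with no overlap. Its log2 fold change was -0.93 ± 0.10 (edgeR adjusted p = 0.00316), and -0.54 (adjusted p = 0.345) with the cells holding a venous gene UMI left out. Rspo3, which strengthens Wnt signals, fell by 1.12 (edgeR adjusted p = 0.0415), but its level was 0.139 times that of the other kept cells, the call was lost without any library but S5 (adjusted p up to 0.150), and its log2 fold change was 0.64 with the venous gene cells left out. The list median was -0.20. In the basement membrane list, 17 of 21 tested genes leaned higher in Het, beside 5618 of all 11472, with a median log2 fold change of 0.21 (0.34 within kit version 3, 0.11 within kit version 3.1). DESeq2 called 3 of them, Col4a1 and Col4a2 included, and edgeR 1, higher in Het (0.392% of all tested genes were). This was Igfbp7, a secreted protein of the vessel wall, at 2242 and 2734 against 3689 and 4104 CPM and at 2176 and 2256 against 2764 and 2900 CPM (0.50 ± 0.10, edgeR adjusted p = 0.0397). Its call was lost without any of the 8 libraries, with adjusted p up to 0.144. EdgeR called no arterial gene (10 tested, 3 at an unadjusted p under 0.05), no brain barrier gene (5, none) and no lymphatic gene (3, of which 1). DESeq2 called 0 of the arterial and brain barrier genes but 1 lymphatic gene, Mmrn1 (log2 fold change -1.66, adjusted p = 0.0129), at 22.03 and 26.4 against 5.86 and 2.70 CPM in kit version 3 and 8.14 and 8.60 against 2.61 and 8.32 CPM in kit version 3.1. By edgeR its log2 fold change was -1.79 ± 0.41 (adjusted p = 0.0862). Of 7 tip cell genes only the chemokine receptor Cxcr4 was called, lower by 0.68 on the log2 scale (edgeR adjusted p = 0.0344). Of all tested genes 0.567% were called lower. Cxcr4 was detected in 33.8% of haematopoietic cells and in 3.52% to 11.3% of endothelial cells at 2000 UMIs, and its call was lost without any library but S1 (adjusted p up to 0.125).

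**Figure D4:**
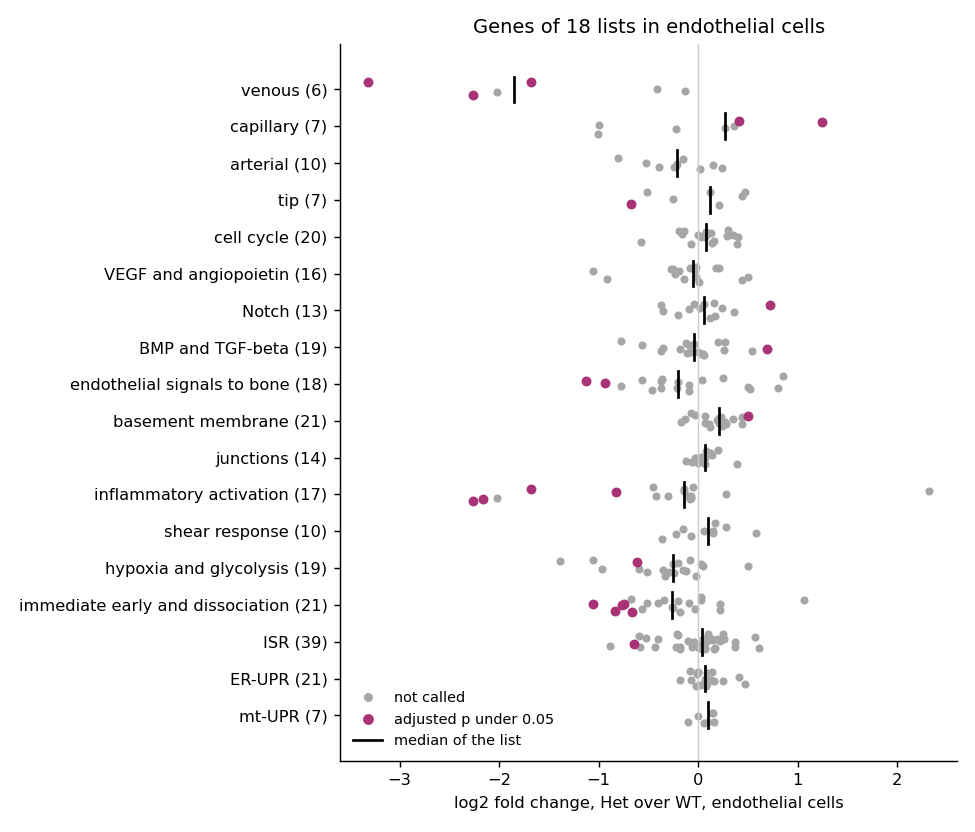
Log2 fold change (Het over WT) of each tested gene of 18 lists in endothelial cells, with the number tested in brackets, called genes in purple, other genes in grey and the list median as a black bar. Of these 18 medians the venous one, -1.85, lies furthest to the left, while the stress lists ISR, ER-UPR and mt-UPR have medians of 0.04, 0.07 and 0.10.

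Genes of cell division gave no call. None of 20 cell cycle genes was called by edgeR or DESeq2, with 1 at an unadjusted p under 0.05 and a median log2 fold change of 0.08. The share of cells with at least 2 of these genes was 24.6% ± 5.7 (SD, n = 4) in WT and 28.5% ± 6.1 in Het, with p = 0.343 in an exact two-sided permutation test. Cells with tip cell genes made up 12.3% and 12.9% of S1 and S2, 27.7% and 23.8% of S3 and S4, 21.5% and 17.99% of S5 and S6 and 13.7% and 18.8% of S7 and S8. That was 13.1 points higher in Het within kit version 3 and 3.52 points lower within kit version 3.1, and the exact permutation p was 0.229. None of the 8 list shares differed at an adjusted p under 0.05, and none at an unadjusted p under 0.05, the smallest being 0.0571 for the lymphatic list (1.07% ± 0.60 in WT, 0.420% ± 0.223 in Het). The lymphatic shares rest on few cells, out of 133 (S8) to 739 (S4) thinned cells per library. Unthinned, the venous share was 43.2% in WT and 40.8% in Het, the tip share 40.9% and 49.0%, the lymphatic share 10.1% and 5.92% and the cell cycle share 51.7% and 51.6%.

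Of 17 inflammatory genes tested, 4 were called, all lower in Het, as were 0.567% of all tested genes. They were Selp, Sele, Cxcl1 and Irf1, and DESeq2 called these and Ccl2. In sign alone 15 of the 17 leaned lower, beside 5854 of all 11472 tested genes. Cxcl1, a neutrophil chemokine (chromosome 5, 90891241 to 90893115, plus strand), had 39 and 28 UMIs in S1 and S2, 10 and 12 in S3 and S4, 32 and 27 in S5 and S6 and 8 and 3 in S7 and S8. It fell by 2.16 on the log2 scale (edgeR adjusted p = 0.00566), at a level 0.960 times that of the other kept cells. Irf1, a factor of the interferon response, stood at 42.5 and 31.7 against 24.2 and 22.6 CPM and at 60.4 and 57.1 against 29.0 and 32.3 CPM (-0.83 ± 0.12, edgeR adjusted p = 0.00952). With the cells holding a venous gene UMI left out its log2 fold change was -0.52 (edgeR adjusted p = 0.137). Irf1 was detected in 8.84% ± 3.32 (SD, n = 4) of WT and 5.07% ± 0.67 of Het endothelial cells at 2000 UMIs, and in 24.4% of unthinned haematopoietic cells. The list median was -0.14, beside -0.66 in kit version 3 and -0.03 in kit version 3.1.

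Of 21 immediate early and dissociation genes tested, 5 were called by edgeR, all lower (0.567% of all tested genes were), and 16 leaned lower in sign (5854 of all 11472). DESeq2 called these 5 and also Btg2, Jun and Nr4a1. Junb, a subunit of the AP-1 factor that binds TGANTCA, stood at 268 and 249 against 141 and 146 CPM in kit version 3 and at 220 and 180 against 134 and 121 CPM in kit version 3.1, with no overlap (-0.74 ± 0.09, edgeR adjusted p = 0.00559). Zfp36, which destabilises inflammatory mRNA, fell by 1.05 (edgeR adjusted p = 0.0124, and 0.070 without S4), Fosb by 0.84 (0.00760), Fos by 0.76 (0.0182) and the cytokine inhibitor Socs3 by 0.66 (0.0337). Fos was not called without S2, S4, S7 or S8 (adjusted p up to 0.085), and Socs3 without any library but S1 (up to 0.125). All 5 had levels 0.131 to 0.293 times those of the other kept cells, and haematopoietic cells held Junb in 76.9% and Fos in 80.0% of cells. With the cells holding a venous gene UMI left out, Junb had a log2 fold change of -0.19, Zfp36 of -0.26, Socs3 of -0.11, Fos of -0.44 and Fosb of -0.78, and none was called, in the 883 WT and 1463 Het cells that this filter on genes differing by genotype kept. These genes respond to digestion of tissue, and the part of handling, of blood cell RNA and of venous cells in their falls was not tested. Of 19 genes of hypoxia and glycolysis 16 leaned lower in sign, beside the same 5854 of 11472, and 1 was called (0.959% of all tested genes were), the glycolytic enzyme Pfkl (-0.61 ± 0.12, edgeR adjusted p = 0.0415, up to 0.179 without any library but S1). DESeq2 called Pfkl, Ankrd37 and Egln3.

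The integrated stress response (ISR) restrains translation and induces Atf4 targets, and the unfolded protein responses of the endoplasmic reticulum (ER-UPR) and of mitochondria (mt-UPR) raise chaperones. In endothelial cells, 1 of 39 tested ISR genes was called by edgeR, beside 0.959% of all tested genes, and it was lower: Ddit4, a target of hypoxia and stress (-0.65 ± 0.11, edgeR adjusted p = 0.0182, up to 0.086 without S3, S4, S6 or S8). DESeq2 called Ddit4 and Ppp1r15a. None of 21 ER-UPR and 7 mt-UPR genes was called by edgeR or DESeq2, with 2 and 0 at an unadjusted p under 0.05. Atf4 stood at 110 and 103 against 106 and 108 CPM in kit version 3 and at 76.7 and 77.9 against 70.4 and 63.1 CPM in kit version 3.1 (-0.10 ± 0.08, edgeR adjusted p = 0.776). Atf5, the factor of the mitochondrial response, had a log2 fold change of -0.18 ± 0.22, the asparagine synthetase Asns of 0.37 ± 0.14, Trib3 of -0.58 ± 0.30, Ddit3 of -0.21 ± 0.21, the ER chaperone Hspa5 of 0.08 ± 0.10, the mitochondrial chaperone Hspa9 of 0.10 ± 0.11 and Eif4ebp1 of 0.01 ± 0.16, none of them called. Col1a2 itself was read at 160 to 1386 CPM, 0.0977 times its level in the other kept cells, with a log2 fold change of -0.09 ± 0.60. Osteoblast markers in the same sums were highest in S4 (2352 CPM) and lowest in S8 (259 CPM), as Col1a2 was, and how much of it endothelial cells made was not tested.

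**Figure D5:**
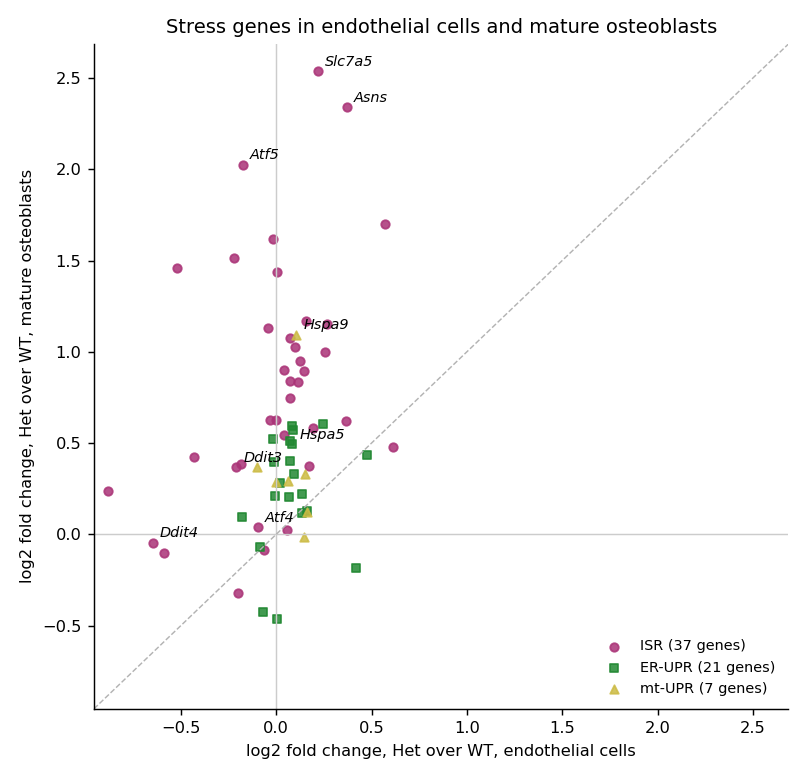
Log2 fold change (Het over WT) of stress genes tested in both cell types, in endothelial cells (x axis) and in mature osteoblasts (y axis), with circles for ISR, squares for ER-UPR and triangles for mt-UPR genes; the dashed line marks equal change. Slc7a5 (0.22 in endothelial cells, 2.54 in mature osteoblasts), Asns (0.37 and 2.34) and Atf5 (-0.18 and 2.03) lie far above that line.

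The difference itself was tested against 1075 mature osteoblasts (osteoblasts with over 3.5% of UMIs from Col1a1) in a joint edgeR quasi-likelihood fit with the library as block. Of 12056 genes, 4 were called (0.0332%), and 572 had an unadjusted p under 0.05. Slc7a5, a transporter of large amino acids and an ISR target, was 2.59 ± 0.31 higher in its log2 Het effect in mature osteoblasts (edgeR adjusted p = 0.0294). In endothelial cells it stood at 8.50 and 9.83 against 18.7 and 15.2 CPM in kit version 3 and at 10.2 and 11.2 against 7.07 and 8.81 CPM in kit version 3.1. Aqp1 (difference -1.31 ± 0.17), Smad6 (-1.44 ± 0.19) and the phosphodiesterase Pde7b (-1.47 ± 0.15) had higher Het effects in endothelial cells, with edgeR adjusted p of 0.0393, 0.0393 and 0.0145. Of 43 ISR genes tested for the difference, 26 had an unadjusted p under 0.05, 1 was called and 39 leaned toward mature osteoblasts, beside 5468 of all 12056. Their median log2 fold change was 0.79 in mature osteoblasts and 0.04 in endothelial cells. The difference was 5.58 ± 0.79 for Trib3 (edgeR adjusted p = 0.0542), 2.25 ± 0.35 for Atf5 (0.0830), 1.99 ± 0.39 for Asns (0.292) and 0.98 ± 0.22 for Hspa9 (0.442). The ISR list was chosen in a study of these osteoblasts, so its direction there is not independent evidence. No difference was called without S1, S2, S3, S4, S5, S6 or S8, and 22 were called without S7.

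Markers of blood cells were among the lowest in Het. Of 5 haematopoietic markers tested 2 were called lower, as were 0.567% of all tested genes. These were the neutrophil protein S100a8 (-3.89 ± 0.60, edgeR adjusted p = 0.0124) and the macrophage lysozyme Lyz2 (-1.86 ± 0.34, edgeR adjusted p = 0.0287). S100a8 stood at 108 and 57.7 CPM in S1 and S2, 1.47 and 7.27 in S3 and S4, 9.88 and 0.662 in S5 and S6 and 0.558 and 0.979 in S7 and S8, at 0.00529 times its level in the other kept cells. Of 5 erythroid markers all leaned lower, beside 5854 of all 11472 tested genes. DESeq2 called 4 of them and edgeR 1 (0.567% of all tested genes were called lower), Hbb-bt (-3.13 ± 0.61, edgeR adjusted p = 0.0409). These 3 calls were lost without some library, S100a8 without S3 or S4 (adjusted p up to 0.070), Lyz2 without S2, S3, S4, S7 or S8 (up to 0.104) and Hbb-bt without S2, S3, S4, S6, S7 or S8 (up to 0.205). None of 10 mural, 5 fibroblast, 9 cartilage or 7 osteoblast markers was called by edgeR or DESeq2, with 1, 0, 4 and 0 at an unadjusted p under 0.05. The osteoblast list includes Col1a1, Runx2, Sp7 and Ibsp, by which the rule left cells out. All 9 cartilage markers leaned higher in Het, beside 5618 of all 11472 tested genes. Their median log2 fold change was 2.68 within kit version 3 but 0.09 within kit version 3.1. The cartilage list includes Col2a1, which the rule kept under 1% of the UMIs of a cell.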

How the data were processed

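Single cells from parietal bones of 4 WT and 4 Het pools were captured with 10x Genomics chemistry. Per the labels and file headers, the authors aligned reads and counted UMIs with Cell Ranger 5.0.0 (kit version 3) or 6.0.1 (kit version 3.1) on genome build mm10, and the deposited matrices hold raw UMI counts for 31053 genes, not normalized. These counts were used as deposited, with the study's limits of 500 genes and 10% mitochondrial UMIs, and doublets were not removed in the main analysis. The members and gene lists were chosen with earlier results of these data known.

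Counts of the endothelial cells were summed per library and tested in R 4.3.3 with edgeR 4.0.16 (filterByExpr, TMM, quasi-likelihood F-test, kit version as covariate) and Benjamini-Hochberg adjustment over all tested genes. The study tested cells; here the library is the replicate. Endothelial cells and mature osteoblasts were compared by a genotype by cell type term with the library as block. Shares were compared by exact permutation tests over all assignments of the 8 libraries, without regard to kit version. To compare shares at 1 depth, each cell was thinned to 2000 UMIs and shallower cells were left out (554 of 3106). Profiles of cells with list genes were ordered by mean log2 ratio with a pseudocount of 50 CPM among genes of at least 100 CPM.

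Genes named are the 10 largest rises and falls among called genes with at least 20 CPM, a level at least 0.5 times that of other kept cells and Het libraries on 1 side of WT libraries in both kit versions, called members of each list or else those of lowest p, 10 stress and collagen genes, and the highest genes of each endothelial list. The rule's own genes, Col1a1, Col2a1, haemoglobin, Xist, Tsix and Y-linked genes were left out of the size ranking. Vcam1, Fabp4, Stab1, Pde7b, Cadm3 and the genes of cell profiles were added after their values were seen. Alternatives covered normalization, DESeq2 1.42.0, filters, cell rules, doublets, depth, kit version and each library left out. Title numbers were not treated as pairs, since same-numbered libraries did not deviate together.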

Additional observations from a re-analysis of the deposited data

Results flagged for a closer look

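A library far from the other 3 of its genotype was found in 7 of 184 groups of 4 tested with Dixon's criterion, which chance alone gives in about 1 in 20. The share of cells with lymphatic genes was 0.752% in Het S8, against 0.271% to 0.341% in the other Het libraries. The share with sinusoidal genes was 0.135% in Het S4 and 0 in the other 3. These shares are out of 318 thinned cells in S3, 739 in S4, 293 in S7 and 133 in S8, so they rest on very few cells. Sele stood at 23.6 CPM in Het S7, against 10.6 to 12.2 CPM in the other Het libraries, still under the lowest WT library. Igfbp7 stood at 2734 CPM in WT S2, against 2176 to 2256 CPM, and the cell cycle kinase Cdk1 at 103 CPM in WT S2, against 55.6 to 61.3 CPM. S100a8 stood at 7.27 CPM in Het S4, against 0.558 to 1.47 CPM. The amino acid transporter Slc38a5 stood at 42.5 CPM in Het S3, against 0 to 3.53 CPM.

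The Het effect differed between mature osteoblasts and endothelial cells in 4 genes by a test of the difference itself (edgeR quasi-likelihood test, adjusted p under 0.05). The difference, as mature osteoblasts minus endothelial cells on the log2 scale, was 2.59 for Slc7a5, -1.31 for Aqp1, -1.44 for Smad6 and -1.47 for Pde7b. Pde7b and Smad6 were read at higher levels in kit version 3.1 than in kit version 3, Pde7b at 194 to 457 against 9.39 to 12.1 CPM in endothelial cells.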

How the results depend on the processing

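Of 110 genes called, RLE size factors gave 111, the upper quartile 104, at least 4 markers 130, mitochondrial genes under 5% 74 and doublets out 120, and, chosen after the data were seen, cells with markers of haematopoietic, mural or fibroblast cells out 155 and haemoglobin and cartilage genes out 118. DESeq2 called 181, no filter on low counts 651 of 19844 genes tested, no kit version 0, at least 2 markers 72, mixed cells out 51 of 5381 genes tested (11 of the 51 among the 110; 131 of 1310 WT and 848 of 1796 Het cells were left), thinned cells 51 of 7577 and cells without venous gene UMIs, an added alternative, 69, of which 62.3% were higher against 40.9%. Leaving out 1 library gave 40 to 122. The replicate block, the title number within kit version, gave 28, but libraries of the same number did not deviate together (correlations of -0.061 and -0.012). Pairs per kit version numbered 2. Of 39 named called genes, 39 were called by DESeq2, 20 under the block and 0 without kit version, 20 were lost when some library was left out, and 4 turned sign under some alternative. For the difference from mature osteoblasts, 4 calls became 18 with DESeq2, 10 with mixed cells out, 43 with an added kit version by cell type term and 0 to 22 with 1 library left out.

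Some signs turned, those of the called genes Cd55, Tmem37, Rspo3 and Cxcr4 included, and the cause was not tested. Of the 39 named called genes, 16 were called, 18 were not and 5 were not tested without cells holding a venous gene UMI, a filter on genes that differ by genotype (883 of 1310 WT and 1463 of 1796 Het cells kept). Eif4ebp1 (0.01) was at -0.0046 with DESeq2, -0.0055 under the block, -6.48e-05 with 4 markers, -0.062 with 2, -0.0062 with mitochondrial genes under 5%, -0.18 with mixed cells out, -0.0092 with doublets out, -0.16 thinned, -0.021 with marker cells of other classes out and -0.066 without venous gene UMIs. Col1a2 (-0.09) was at 0.19 without kit version, 0.072 with 2 markers, 0.73 with mixed cells out, 0.038 with marker cells of other classes out and 0.14 without venous gene UMIs. With 2 markers, Hspd1 was at -0.23, Asns at -0.087, Slc7a5 at -0.097, Hspa9 at -0.086 and Stab1 at 0.031. With mixed cells out, Cxcr4 was at 0.91, Nos3 at -0.19, Jam3 at -0.11, Edn1 at 1.149 and Lonp1 at -0.23. Thinned, Slc2a1 was at -0.16. Without venous gene UMIs, Cd55 was at 0.24, Tmem37 at 0.22, Rspo3 at 0.64, Slc2a1 at -0.12, Emcn at 0.055, Slc7a5 at -0.15, Ephb4 at 0.061 and Stab1 at 0.20. Without 1 library, the log2 fold change ranged from -0.30 to 0.0075 for Atf5, -0.72 to 0.52 for Col1a2, -0.12 to 0.16 for Eif4ebp1, -0.0052 to 0.16 for Hspa5, -0.62 to 0.037 for Prox1, -0.11 to 0.14 for Slc2a1, -1.42 to 2.05 for Slc38a5 and -0.19 to 0.21 for Stab1.

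The arterial share difference (0.038 points) was -0.80 with 3 genes, -0.27 with marker cells of other classes out and -0.89 to 1.48 without 1 library. The capillary one (0.79) was -0.12 unthinned and -0.49 to 1.90 without 1 library, the brain barrier one (0.65) -0.10 with 3 genes, -5.96 with mixed cells out and -0.79 to 2.04 without 1 library, and the cell cycle one (3.88) -0.10 unthinned. Depth limits genes under about 10 CPM, which rest on few UMIs per library, and the smallest exact permutation p that 4 against 4 libraries allow is 0.0286.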

Other observations

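Among genes of at least 100 CPM that stood out most in endothelial cells over the other kept cells were some outside the usual marker lists. Zfp366, a zinc finger gene, stood at 147 CPM and 131 times the level of the other cells, Pcdh17, a protocadherin, at 489 CPM and 122 times, and Kcne3 at 102 CPM and 68.5 times. The vascular phosphatase Ptprb stood at 860 CPM and 101 times. Cdh13 (T-cadherin), at 1064 ± 832 CPM (SD, n = 8) and 122 times, varied far more between libraries than Ptprb (± 162 CPM) did.

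Endothelial cells with at least 2 cell cycle genes at 2000 UMIs also held more of other genes of division. The linker histone Hist1h1b stood at 348 CPM in them against 13.5 CPM in the other endothelial cells, the chromatin protein Hmgb2 at 979 against 144 CPM and the spindle protein Prc1 at 255 against 6.31 CPM, each in all 8 libraries.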
